A study of Homo sapiens with 4 samples.

Results

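Antisense transcripts and the genes they are named for were compared in BEAS-2B, a cell line of human bronchial epithelium. The members were the symbols of the count files that end in -AS1, -AS2 or -AS3, whose raw counts summed over the 4 libraries reached 100 and whose name before the ending is itself a symbol of the files. Of 971 symbols with such an ending, 183 reached the count sum and 182 of these had a partner symbol, which gave 182 antisense members and 180 distinct sense partners among 24424 symbols in all. The members were thus chosen by their measured values, the antisense counts summed over all conditions, so the presence of these transcripts is not a finding. RPARP-AS1, with 390 counts, was left out because no partner symbol was listed. Just inside the threshold stood KLHL7-AS1 with 101 counts, JMJD1C-AS1 and KTN1-AS1 with 103 each and HHIP-AS1 with 105, and just outside it ADNP-AS1 and USP3-AS1 with 99 each and CIRBP-AS1 with 98. By ending, 172 members were AS1, 9 were AS2 and 1 was AS3.

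There was 1 library for each of 4 groups, all from wild-type BEAS-2B cells. The Control cells received no treatment. The LPS group was incubated for 2 hr with lipopolysaccharide, a component of the bacterial outer membrane. The WT PDZ+LPS and mut PDZ+LPS groups first received the wild-type or the mutant form of a cell-penetrating peptide based on a PDZ domain of the tight junction protein ZO-1 for 24 hr, followed by LPS for 2 hr. There was no library with peptide and without LPS. Where 4 values of a symbol are given, they follow this order of groups, with the wild-type peptide before the mutant one. Because each group was 1 library, a difference between 2 libraries has no replicate check, the treatment and the library cannot be told apart, and no p-value is given for any comparison. The 95% intervals printed here are exact binomial (Clopper-Pearson) intervals of the counts for a single symbol, and exact conditional intervals of the odds ratio of the counts for a ratio shift. They hold the error of counting alone, and without molecular identifiers several reads may be copies of 1 molecule.

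An antisense transcript is read from the DNA strand opposite to that of a neighbouring or overlapping gene. Some start beside the promoter of the partner and run away from it, which is called head to head or divergent, and others start inside or beyond the partner and run back across it. Such RNAs are mostly non-coding, are often held in the nucleus and degraded by the RNA exosome, and some are known to act on the transcription, splicing or stability of the partner.

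The gene models of GENCODE 29 gave the arrangement of 174 of the 182 pairs, all with a protein-coding partner. The exons of the 2 transcripts overlapped on opposite strands in 131 pairs, the gene bodies overlapped without shared exon bases in 13, and there was no overlap in 30. The 2 start sites lay within 1000 bases of each other in 40 pairs with and 28 pairs without exon overlap, at a median distance of 321.5 bases. Both kinds are called head to head here by this distance alone. In the 40 pairs with exon overlap, the antisense transcript starts inside the partner and runs back across the start of the partner. The library kit marks the strand, but whether the reads were counted by strand is not given in the sources used here, so where exons overlap the reads of the 2 transcripts cannot be told apart. The models of HIF1A-AS2 in RefSeq and GENCODE are different transcripts, so no length or overlap is given for it. RefSeq now lists 151 members under the same symbol and 20 as divergent transcripts (-DT), and it lists LRRC75A-AS1 as SNHG29, a host gene of small nucleolar RNAs.

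The 6 head-to-head pairs below are shown because their antisense symbols are described here, their exons do not overlap, and the stretch between the 2 start sites is where both transcripts begin. Each is given in the direction of the sense gene, from RefSeq on GRCh38.p14, as the longest part between the starts that is free of exon bases. Capitals mark a CCAAT box (CCAAT) or a GC box (GGGCGG) on either strand. The motif TATAAA was searched on both strands as well and was in none of them.
NCK1, chr3:136862064-136862207, plus strand: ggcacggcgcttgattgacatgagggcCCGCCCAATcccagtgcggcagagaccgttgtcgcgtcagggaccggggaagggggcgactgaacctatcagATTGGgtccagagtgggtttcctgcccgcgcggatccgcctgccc
RASAL2, chr1:178093994-178094103, plus strand: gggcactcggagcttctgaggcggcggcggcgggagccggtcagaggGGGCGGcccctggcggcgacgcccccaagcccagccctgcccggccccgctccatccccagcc
NUP50, chr22:45163782-45163840, plus strand: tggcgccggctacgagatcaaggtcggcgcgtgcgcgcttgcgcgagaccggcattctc
RAB30, chr11:83071924-83072065, minus strand: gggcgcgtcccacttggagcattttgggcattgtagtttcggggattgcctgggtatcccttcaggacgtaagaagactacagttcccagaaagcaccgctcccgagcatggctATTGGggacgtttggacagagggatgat
GAS6, chr13:113864077-113864167, minus strand: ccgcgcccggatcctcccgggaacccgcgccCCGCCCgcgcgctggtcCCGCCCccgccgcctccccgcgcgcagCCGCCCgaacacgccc
ZNF674, chrX:46545458-46545489, minus strand: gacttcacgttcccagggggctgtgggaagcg
The NCK1 stretch held 2 CCAAT boxes and 1 GC box, whose letters overlap at one place, and the GAS6 stretch held 3 GC boxes. The RAB30 stretch held 1 CCAAT box, the RASAL2 stretch 1 GC box, and the printed parts of the NUP50 and ZNF674 stretches none of the 3 motifs. Only 59 of the 143 bases between the starts were searched for NUP50, and 32 of 68 for ZNF674. These matches are a description of the letters and not of factor binding.

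Over the members as a group, RefSeq windows of 300 bases (250 before to 50 after the start) were found for 146 antisense symbols and 157 partners. GGGCGG was present in 57.1% of the antisense windows, in 62.8% of the sense windows and in 45.0% of the windows of all 27305 symbols in the table. CCAAT was present in 31.1%, 35.6% and 34.6%, and TATAAA in 6.8%, 8.3% and 11.5%. The median GC content was 65.7% for antisense, 65.0% for sense and 58.7% for all symbols. The antisense members were chosen by their counts and the set of all symbols was not, so the sets are not matched for level. Windows of a head-to-head pair share bases, so the antisense and the sense values are not independent.

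Total counts ran from 19682929 in mut PDZ+LPS to 25155647 in LPS. The 7 epithelial markers summed to between 67399 and 86400 counts with none at 0, whereas the leukocyte marker PTPRC was at 0 in every library and the 3 endothelial markers summed to at most 15 counts. The mesenchymal markers VIM, FN1 and CDH2 summed to 43566 to 64743, and the 4 leukocyte markers to 720 to 858, nearly all from CD14 and CD68. The part of other cell types in the results was not tested, and in bulk samples fewer cells of a type and less RNA per cell cannot be told apart. The mut PDZ+LPS library stood apart from the rest by transcript length: across features with a count sum of at least 100, Spearman's rho between transcript length and the log2 fold change was -0.56 for mut PDZ+LPS/LPS and -0.57 when set against WT PDZ+LPS, compared with 0.15 for LPS/Control and 0.07 for WT PDZ+LPS/LPS. The median transcript length was 2390 nt for antisense members, 4072 nt for partners and 3701 nt for the 12260 features with a length, and a correction for length and GC content was made, whose values are given beside many of the results of that library. Whether the length trend belongs to the treatment or to the library cannot be told apart.

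Antisense members took 0.229%, 0.225%, 0.230% and 0.2497% of all counts. There were 0.124, 0.124, 0.125 and 0.140 antisense counts per sense count in the same order, so the mut PDZ+LPS library was the highest of the 4 on both measures. Both measures pool the counts, so the most counted members weigh most. LRRC75A-AS1 alone had 40067 counts over the 4 libraries, where the median member had 337. Its own normalized level was also highest in mut PDZ+LPS. The median member had 83.6 normalized counts against 1063 for the median partner. Per kilobase of exon the antisense member stood below its partner in most pairs, with a median ratio of 0.187 over 172 pairs and a ratio above 1 in 39 of them.

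The antisense member with the highest level was LRRC75A-AS1, with 9296, 9249, 9562 and 11850 normalized counts. Its partner LRRC75A, a leucine-rich repeat gene, had 282, 183, 156 and 179, and per kilobase of exon the antisense symbol was 47.7 times its partner. HIF1A-AS2 and FGD5-AS1 came next. FGD5-AS1 had 3467, 3183, 3087 and 1990 counts, while FGD5, a guanine nucleotide exchange factor known from endothelial cells, had 0 counts in every library, which allows up to 3 counts per library. CADM3-AS1, WAC-AS1, MMP24-AS1, HNRNPU-AS1, OIP5-AS1, PCNA-AS1 and SH3RF3-AS1 completed the 10 highest, with means between 1023 and 2267 normalized counts. Not all of these are established as separate non-coding antisense transcripts. RefSeq lists HNRNPU-AS1 as a synonym of its partner HNRNPU. It lists MMP24-AS1 as MMP24OS, which GENCODE types as protein-coding. For PCNA-AS1 no GENCODE model was matched.

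At the other end, the antisense counts were smallest beside their partners at some of the most abundant genes. VIM-AS1 gave 0.139 antisense counts per 100 counts of VIM, the gene of the intermediate filament vimentin, and TPT1-AS1 gave 0.141 per 100 counts of TPT1, which encodes a translationally controlled protein. KTN1-AS1 gave 0.219 and PCBP1-AS1 gave 0.355. Some of the highest ratios belonged to partners that were barely counted. CKMT2 had 4, 1, 0 and 3 counts beside 206, 171, 174 and 201 of CKMT2-AS1, and DLGAP1 had at most 1 count. CKMT2-AS1 and DLGAP1-AS1 were therefore counted in cells with next to no counts of the gene they are named for.

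A member was called higher or lower between 2 libraries where its normalized counts differed at least 2-fold and were at least 16 (a log2 value of 4) in one library or both. After LPS, EGFR-AS1, DLGAP1-AS1 and P4HA2-AS1 were higher and DHRS4-AS1 and SAPCD1-AS1 were lower than in Control. That is 3 of 182 higher and 2 lower, where 3.46% of the 13277 features that met the level rule were called higher and 1.41% lower. Of the 169 partners at that level, 2 were higher, EGFR and MSC, and 0 lower. The antisense shares, 1.65% and 1.10%, were below those of all features. Without the 2-fold rule, the counting interval excluded no change for 38 of 182 antisense members and 89 of 164 partners, where the background was 48.3%. Antisense members have fewer counts than their partners and therefore wider intervals.

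EGFR-AS1 had 16, 55, 57 and 59 counts, which is 13.9, 51.7, 57.6 and 69.3 normalized counts. All 3 LPS-treated libraries were above Control, and the differences among these 3 lay within counting error. The log2 fold change after LPS was 1.82 (interval 1.07 to 2.80). EGFR, the receptor tyrosine kinase of epidermal growth factor ligands, had 2602, 5336, 5386 and 2363 normalized counts, with a log2 fold change of 1.04 (0.97 to 1.10) after LPS. Sense and antisense were thus both at least 2-fold higher after LPS alone and with WT PDZ. In mut PDZ+LPS the EGFR level as counted was close to that of Control and that of EGFR-AS1 was not. After the length and GC correction, the log2 fold change of EGFR was 0.98 for LPS/Control and -0.64 for mut PDZ+LPS/LPS. The ratio was 0.535, 0.970, 1.07 and 2.93 antisense counts per 100 sense counts. EGFR-AS1 starts inside EGFR and shares 186 exon bases with it, 6.6% of its own exon length.

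**Figure D1:**
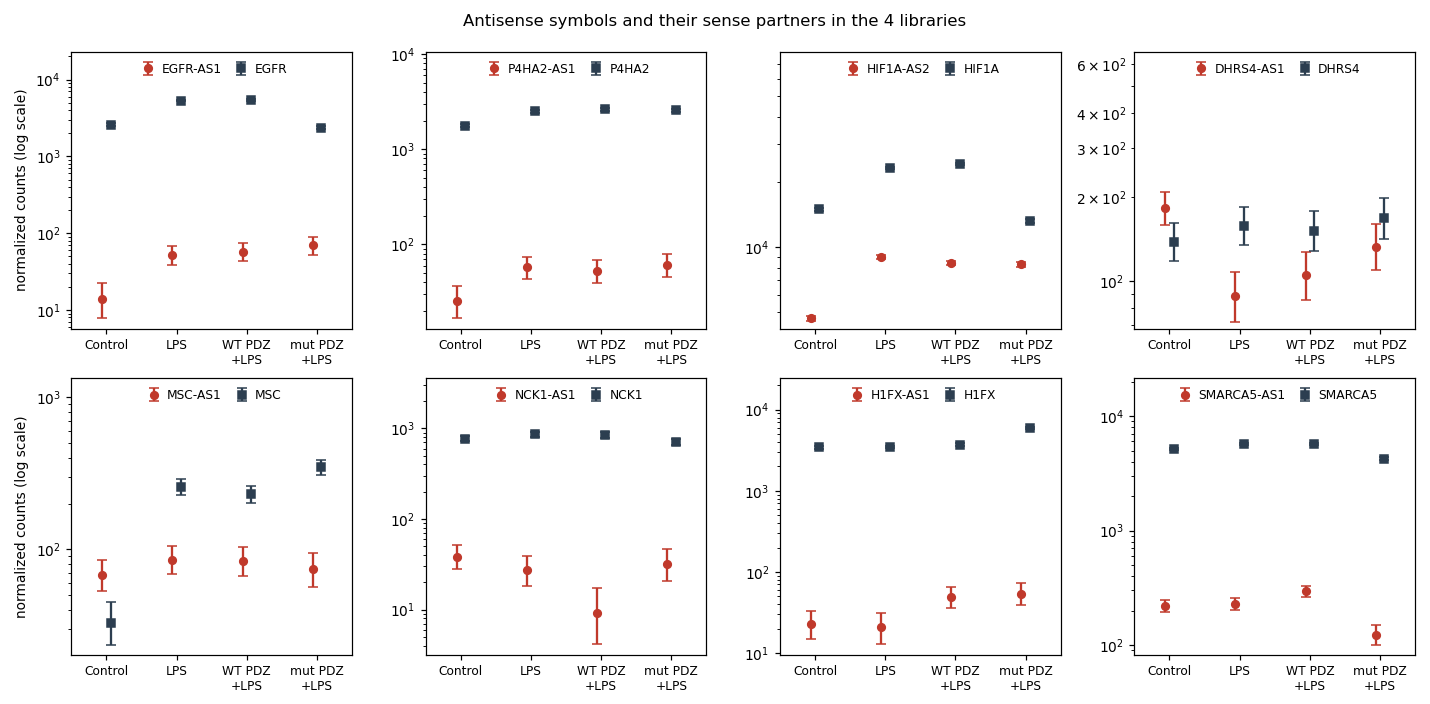
Normalized counts (log scale) of 8 antisense symbols (circles) and their sense partners (squares) in the 4 libraries, with bars for the exact 95% Poisson interval of the count in 1 library. EGFR-AS1 and P4HA2-AS1 lie higher in all 3 LPS-treated libraries, MSC changes while MSC-AS1 stays between 67.9 and 85.6, and NCK1-AS1 is lowest in WT PDZ+LPS at 9.09.

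P4HA2-AS1 had 29, 61, 52 and 52 counts, and its log2 fold change after LPS was 1.15 (0.52 to 1.88). The partner P4HA2, a subunit of the collagen prolyl hydroxylase, had 1766, 2503, 2620 and 2553 normalized counts, a log2 fold change of 0.50 (0.42 to 0.59). Both were higher in each LPS-treated library than in Control, and 65.3% of the exon bases of P4HA2-AS1 lie on exons of P4HA2, so reads of the 2 symbols cannot be told apart over that stretch. DLGAP1-AS1 had 21, 47, 41 and 52 counts and a log2 fold change of 1.23 (0.50 to 2.09), with no change of a partner to set beside it, since DLGAP1, a scaffold protein of synapses, was at or near 0.

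HIF1A-AS2 did not reach the 2-fold rule but was counted far more deeply than the members that did. It had 5370, 9500, 8366 and 7048 counts, or 4674, 8936, 8448 and 8281 normalized counts, with a log2 difference of 0.94 (0.89 to 0.98) after LPS. HIF1A, the oxygen-regulated subunit of the hypoxia-inducible factor, had 14893, 23197, 24149 and 13183 normalized counts, a log2 difference of 0.64 (0.61 to 0.67) after LPS. As with EGFR as counted, the HIF1A level in mut PDZ+LPS was near that of Control while the antisense level was near that of LPS. The ratio was 31.4, 38.5, 35.0 and 62.8 antisense counts per 100 sense counts.

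DHRS4-AS1 had 210, 94, 104 and 113 counts, with a log2 fold change of -1.04 (-1.41 to -0.69) after LPS. Its partner DHRS4, a reductase of retinoids and other carbonyl compounds, had 138, 158, 151 and 168 normalized counts, and its interval after LPS, -0.13 to 0.51, included no change. DHRS4 has near-identical neighbouring copies, so how reads were divided among them is uncertain. SAPCD1-AS1 had 51, 23, 17 and 36 counts beside 0 counts of SAPCD1 in every library, and its log2 fold change of -1.004 (-1.81 to -0.30) was no longer 2-fold after the length and GC correction (-0.93) or with a pseudocount of 5 (-0.89).

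The counting intervals also gave a set of members that differed in the same direction in each LPS-treated library, whatever the size of the difference. Higher than Control in all 3 LPS-treated libraries, with each counting interval excluding no change, were 7 of 182 antisense members and 23 of 164 partners, where 12.2% of all features were. Lower in all 3 were 4 antisense members and 11 partners, where 8.68% of all features were. The 3 comparisons share the Control library. The 7 were C1RL-AS1, DLGAP1-AS1, EGFR-AS1, HIF1A-AS2, P4HA2-AS1, PSMA3-AS1 and ZMIZ1-AS1, and of their partners P4HA2 and PSMA3 were also higher in all 3. These lists were drawn up after their values were seen. ZMIZ1-AS1 had 84.4, 113, 126 and 192 normalized counts beside 2188, 2297, 2411 and 1948 for ZMIZ1, a coactivator of transcription. The 4 lower members were DHRS4-AS1, MAGI2-AS3, OIP5-AS1 and TMPO-AS1, none with a partner that was lower in all 3. TMPO-AS1 had 107 normalized counts in Control and 61.1, 66.6 and 61.1 in the LPS-treated libraries, whereas TMPO, a protein of the nuclear lamina, had 10075, 9439, 10032 and 7653.

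Among pairs at that level, MSC and MSC-AS1 separated most after LPS. MSC, which encodes the transcription factor musculin, had 38, 272, 228 and 294 counts, a log2 fold change of 2.91 (2.46 to 3.48). MSC-AS1 had 78, 91, 83 and 63 counts, a log2 difference of 0.33 (-0.12 to 0.79). There were 205 antisense counts per 100 sense counts in Control and 33.5 in LPS, so the more counted of the 2 symbols changed from MSC-AS1 to MSC.

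The ratio of antisense to sense counts within a library does not depend on the scaling of the libraries. It was called shifted where it changed at least 2-fold, both symbols met the level rule and the exact interval excluded no shift. After LPS it fell in 4 of 171 pairs and rose in 0. The 4 were MSC-AS1 with a log2 shift of -2.58 (-3.31 to -1.93), MAFG-AS1 with -1.47 (-1.95 to -1.04), DHRS4-AS1 with -1.23 (-1.73 to -0.75) and ITPK1-AS1 with -1.03 (-1.95 to -0.24). MAFG-AS1 had 118 normalized counts in Control and 61.1, 67.7 and 119 in the LPS-treated libraries, while MAFG, a small Maf transcription factor that pairs with NRF2, had 1263, 1827, 1744 and 2220. Sense and antisense thus differed in opposite directions after LPS alone, and in mut PDZ+LPS the antisense level was again close to that of Control. No length was matched for MAFG-AS1. Among the pairs that met the level rule, the largest positive ratio shifts after LPS were under 2-fold and were those of ZNF674-AS1 with 0.96 (0.32 to 1.63) and RAB30-AS1 with 0.82 (0.42 to 1.22). RAB30, a small GTPase of the Golgi, had 674 normalized counts in Control and 370 in LPS beside 125 and 121 for RAB30-AS1, so the sense symbol differed at this head-to-head pair while the interval of the antisense symbol, -0.40 to 0.31, included no change.

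WT PDZ+LPS/LPS had the fewest features called of the 4 comparisons. H1FX-AS1 alone was called higher and NCK1-AS1 alone lower, 1 of 182 each way, where 0.635% of 13236 features were called higher and 0.733% lower. Of 170 partners 0 were higher and 1 was lower, LHX4, a homeobox factor with 29 counts in LPS and 12 in WT PDZ+LPS. Counting intervals excluded no change for 22 antisense members and 49 partners, where the background was 22.6%.

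NCK1-AS1 had 44, 29, 9 and 27 counts. The WT PDZ+LPS library was the lowest of the 4, with a log2 fold change against LPS of -1.49 (-2.85 to -0.47). NCK1, an adaptor that links receptor tyrosine kinases to the actin cytoskeleton, had 770, 863, 844 and 713 normalized counts, and its interval against LPS, -0.17 to 0.11, included no change. This is the pair with 2 CCAAT boxes and a GC box in the 144 bases printed above. Its transcripts share no exon bases in GENCODE 29, but the annotation used for the counts is not given. NUP50-AS1, at another head-to-head pair without overlap, had 100, 78, 45 and 77 counts and was also lowest in WT PDZ+LPS, at a log2 difference of -0.68 (-1.25 to -0.14) against LPS that did not reach 2-fold. RASAL2-AS1 had 21, 36, 21 and 32 counts, so Control and WT PDZ+LPS were equal in raw counts.

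H1FX-AS1 had 26, 22, 48 and 46 counts, so both peptide libraries lay above both libraries without peptide. The log2 fold change against LPS was 1.19 (0.47 to 2.03) with WT PDZ and 1.34 (0.62 to 2.19) with mut PDZ. The partner H1FX, a linker histone, had 3425, 3499, 3710 and 5883 normalized counts and was higher beyond counting error in both, with log2 differences of 0.08 and 0.75, of which the latter was 0.08 after the length and GC correction. The 2 comparisons share the LPS library. The ratio against LPS rose by a log2 of 1.10 (0.38 to 1.95) with WT PDZ, and with mut PDZ the shift of 0.59 had an interval of -0.13 to 1.44 and was 1.08 after the correction. Besides H1FX-AS1, the ratio rose for LHX4-AS1 (1.41, 0.34 to 2.68) and fell for NCK1-AS1 (-1.46, -2.83 to -0.43), 3 shifts among 172 pairs.

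In mut PDZ+LPS against LPS, H1FX-AS1, HHIP-AS1, ITPK1-AS1, SLC25A21-AS1 and SLFNL1-AS1 were called higher and RAET1E-AS1 lower. That is 5 of 182 higher and 1 lower, where 2.05% of 13378 features were called higher and 1.9% lower. Of the 169 partners 1 was higher, PRR7, and 2 were lower, EGFR and NUTM2A, and after the correction 1 partner was called in all. Counting intervals excluded no change for 78 antisense members and 118 partners, where the background was 64.9%.

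ITPK1-AS1 had 39, 19, 35 and 44 counts. It was lowest in LPS, and the log2 fold change of mut PDZ+LPS against LPS was 1.48 (0.73 to 2.39), or 1.68 after the length and GC correction. ITPK1, an inositol phosphate kinase, lay between 4366 and 5279 normalized counts in the 4 libraries. HHIP-AS1 had 19, 21, 25 and 40 counts and a log2 fold change of 1.21 (0.45 to 2.09), which was 0.88 after the correction and then under 2-fold. HHIP, which binds Hedgehog ligands and damps their signalling, had 51, 32, 38 and 23 counts, so the antisense symbol outnumbered its partner only in mut PDZ+LPS.

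SLFNL1-AS1 had 60, 47, 74 and 82 counts and a log2 fold change of 1.11 (0.59 to 1.67), and its partner SLFNL1 had 22, 21, 19 and 31 counts. SLC25A21-AS1 had 44, 25, 29 and 41 counts and just reached the rule at 1.004 (0.28 to 1.81), and under TMM scaling (0.997) or after the correction (0.87) it did not. SLC25A21 is a carrier of the mitochondrial inner membrane and had 209, 175, 151 and 146 counts. RAET1E-AS1 had 41, 24, 32 and 9 counts and was lowest with the mutant peptide. Against LPS the log2 fold change was -1.03, but the interval of -2.38 to 0.06 included no change. RAET1E, a ligand of the natural killer cell receptor NKG2D, had 74, 61, 69 and 54 counts.

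Against WT PDZ+LPS, the mut PDZ+LPS library had 4 of 182 antisense members called higher and 4 lower, where 2.12% of 13372 features were called higher and 2.14% lower. Of 170 partners 0 were higher and 3 were lower, EGFR, CERS6 and PTPRG, and after the correction 0 were called. PRR7, CERS6 and PTPRG were named after their values were seen. Counting intervals excluded no change for 72 antisense members and 120 partners, where the background was 65.9%. The 4 higher members, NCK1-AS1, SAPCD1-AS1, THAP7-AS1 and PITPNA-AS1, had their lowest counts of the 4 libraries in WT PDZ+LPS. NCK1-AS1 had a log2 fold change of 1.70 (0.67 to 3.08), which was 1.40 after the length and GC correction. The other three fell below 2-fold after that correction, at 0.65 for SAPCD1-AS1, 0.84 for THAP7-AS1 and 0.53 for PITPNA-AS1.

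The 4 lower members had their lowest counts in mut PDZ+LPS. SMARCA5-AS1 had 253, 243, 292 and 105 counts, a log2 fold change of -1.25 (-1.59 to -0.93) against WT PDZ+LPS and the largest difference of the 4 in reads. SMARCA5, the ATPase of ISWI chromatin remodelling complexes, had 5164, 5718, 5703 and 4259 normalized counts, a log2 difference of -0.42 (-0.48 to -0.36), and the ratio differed by -0.83 (-1.18 to -0.50). Of the exon bases of SMARCA5-AS1, 66.7% lie on exons of SMARCA5. After the length and GC correction the antisense value was -1.96 and the sense value 0.06. ADPGK-AS1 had 46, 58, 61 and 25 counts with a log2 fold change of -1.04 (-1.80 to -0.38), while ADPGK, an ADP-dependent glucokinase, had 1786 and 1793 normalized counts in WT PDZ+LPS and mut PDZ+LPS. NAV2-AS2 had 44, 41, 45 and 18 counts (-1.07, -1.98 to -0.29, or -1.56 after the correction) and RAET1E-AS1 differed by -1.53 (-2.86 to -0.51).

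In mut PDZ+LPS against LPS, the ratio rose in 12 and fell in 2 of 171 pairs, and against WT PDZ+LPS it rose in 15 and fell in 4 of 172. The largest against LPS was EGFR-AS1 at a log2 shift of 1.59 (1.04 to 2.16), followed by LHX4-AS1 at 1.51 and SERTAD4-AS1 at 1.48, the latter 0.79 after the correction. The largest against WT PDZ+LPS was NCK1-AS1 at 1.94 (0.90 to 3.33), followed by FOXN3-AS1 at 1.62 (0.79 to 2.54), or 0.62 after the correction. The ratio of RAB30-AS1 rose by 1.14 (0.72 to 1.56) and 1.20 (0.80 to 1.62), or by 0.31 and 0.33 after the correction, with 199 normalized counts in mut PDZ+LPS beside 274 of RAB30, where the other LPS-treated libraries had 121 and 139 beside 370 and 444. The ratio of GAS6-AS2 fell against WT PDZ+LPS, with a log2 shift of -1.10 (-1.91 to -0.37) that was -0.94 after the correction, with counts of 47 and 23, while GAS6, a ligand of the TAM receptor kinases, had 2430 normalized counts against 1963, a log2 difference of 0.31 that was 0.02 after the correction.

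**Figure D2:**
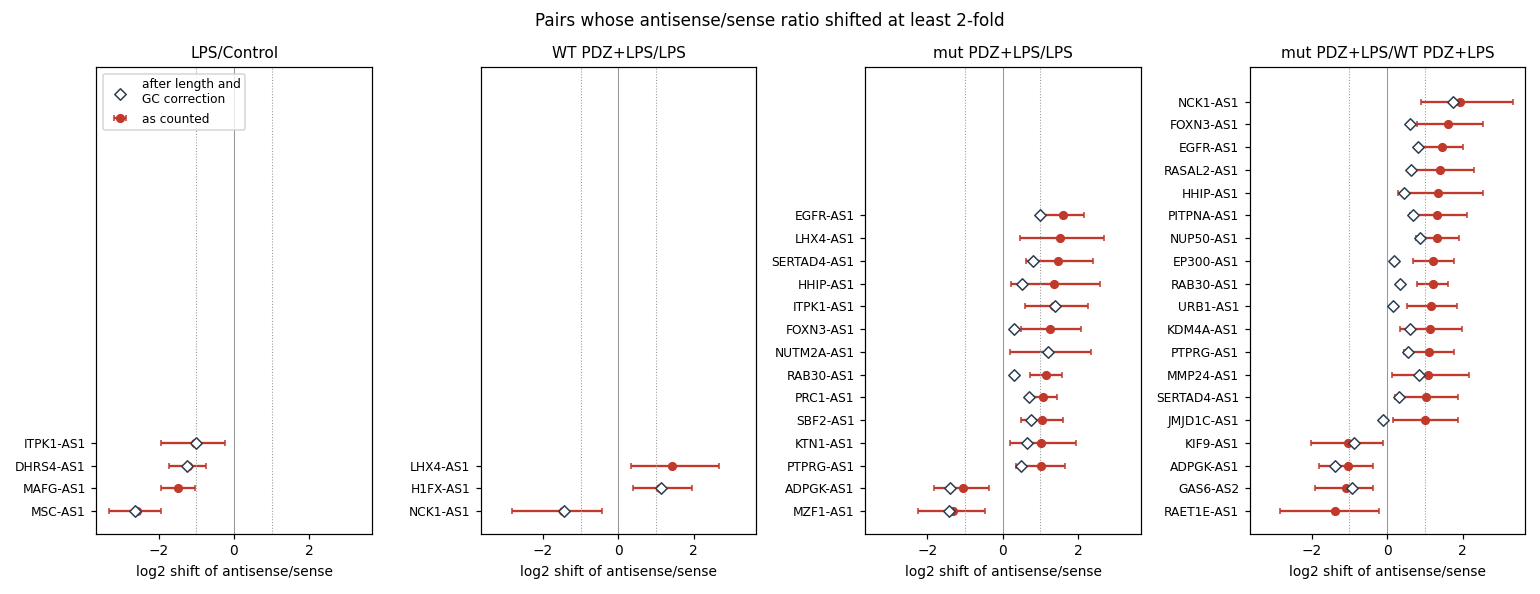
Log2 shift of the antisense/sense count ratio for the pairs called in each comparison (circles, with the exact 95% counting interval) and after the length and GC correction (diamonds, where a transcript model was matched), with dotted lines at 2-fold. In mut PDZ+LPS/WT PDZ+LPS most diamonds lie nearer to 0 than the circles, and NCK1-AS1 stays at 1.75.

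Many of these shifts changed with the length and GC correction. The pairs counted here were called before it, so pairs that reached 2-fold only after it are not among them. SMARCA5-AS1 was such a pair, at -0.46 against LPS and -0.83 against WT PDZ+LPS as counted, and at -1.60 and -2.02 after the correction. Of the 14 pairs called against LPS, 13 had a transcript length for both symbols and 5 of these kept a shift of at least 2-fold after the correction. These were EGFR-AS1 (1.0001, at the threshold), ITPK1-AS1 (1.40), NUTM2A-AS1 (1.19), ADPGK-AS1 (-1.39) and MZF1-AS1 (-1.41). Of the 19 called against WT PDZ+LPS, 18 had lengths and 2 kept it, NCK1-AS1 (1.75) and ADPGK-AS1 (-1.39). Of those called after LPS, all 3 with lengths kept it, and of those called in WT PDZ+LPS/LPS both with lengths did. The fall of EGFR in mut PDZ+LPS against LPS was -1.17 as counted and -0.64 after the correction, and that of HIF1A was -0.82 and -0.70.

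Over all members the antisense median was a log2 of -0.04 for LPS/Control, 0.06 for WT PDZ+LPS/LPS and, with the mutant peptide, 0.20 against LPS and 0.15 against WT PDZ+LPS. The partners had medians of 0.06, 0.02, -0.05 and -0.07 in the same order, and all 12538 features with a count sum of at least 100 had -0.00, 0.01, -0.03 and -0.02. After the length and GC correction the antisense medians of mut PDZ+LPS against LPS and WT PDZ+LPS were 0.09 and 0.07 and the sense medians 0.02 and 0.02, so the medians lay closer together after the correction and the antisense median was still the higher. The 72 symbols starting with LINC, non-coding RNAs not named for a partner, had medians of -0.01, -0.04, 0.09 and 0.11. In the same order 2, 1, 2 and 1 of the 72 were called higher and 1, 0, 0 and 0 lower. Of all features that met the level rule, 3.46%, 0.635%, 2.05% and 2.12% were called higher and 1.41%, 0.733%, 1.9% and 2.14% lower.

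**Figure D3:**
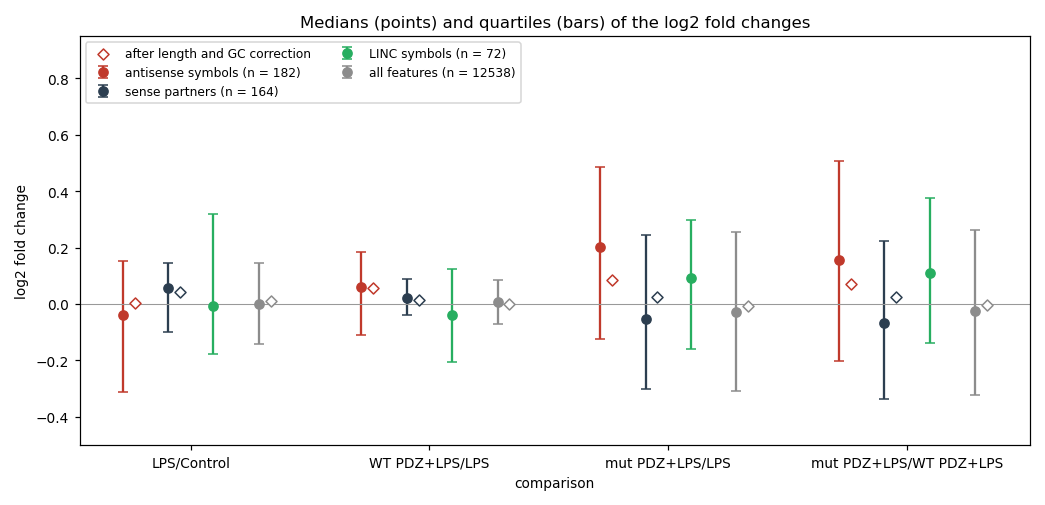
Medians (points) and quartiles (bars) of the log2 fold changes of antisense symbols, sense partners, LINC symbols and all features in 4 comparisons, with the medians after the length and GC correction as open diamonds. The antisense and sense medians are farthest apart in mut PDZ+LPS/LPS, at 0.20 and -0.05, and come to 0.09 and 0.02 after the correction.

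The antisense and the sense log2 differences had the same sign in 110 of 180 pairs for LPS/Control, 95 for WT PDZ+LPS/LPS and, with the mutant peptide, 104 against LPS and 109 against WT PDZ+LPS. After the length and GC correction these counts were 104, 91, 89 and 92 of 172 pairs. As counted, both symbols were higher in 61 and both lower in 49 pairs for LPS/Control, with 20 and 50 pairs of opposite signs. For WT PDZ+LPS/LPS these numbers were 65, 30, 43 and 42. How many unrelated pairs would have equal signs was not computed, so the counts alone show no link between partners. Where both intervals excluded no change, the sign was the same in 16 of 21, 5 of 9, 35 of 48 and 32 of 45 pairs. By arrangement, the sign was the same after LPS in 61 of 89 pairs with exon overlap and start sites more than 1000 bases apart. It was the same in 24 of 40 head-to-head pairs with exon overlap and in 14 of 28 head-to-head pairs without it. Among the other pairs without exon overlap it was the same in 6 of 15. For mut PDZ+LPS/LPS the counts were 52, 25, 13 and 9 of the same numbers of pairs. The difference between arrangements was not tested, and in overlapping pairs shared reads and a shared change cannot be told apart.

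**Figure D4:**
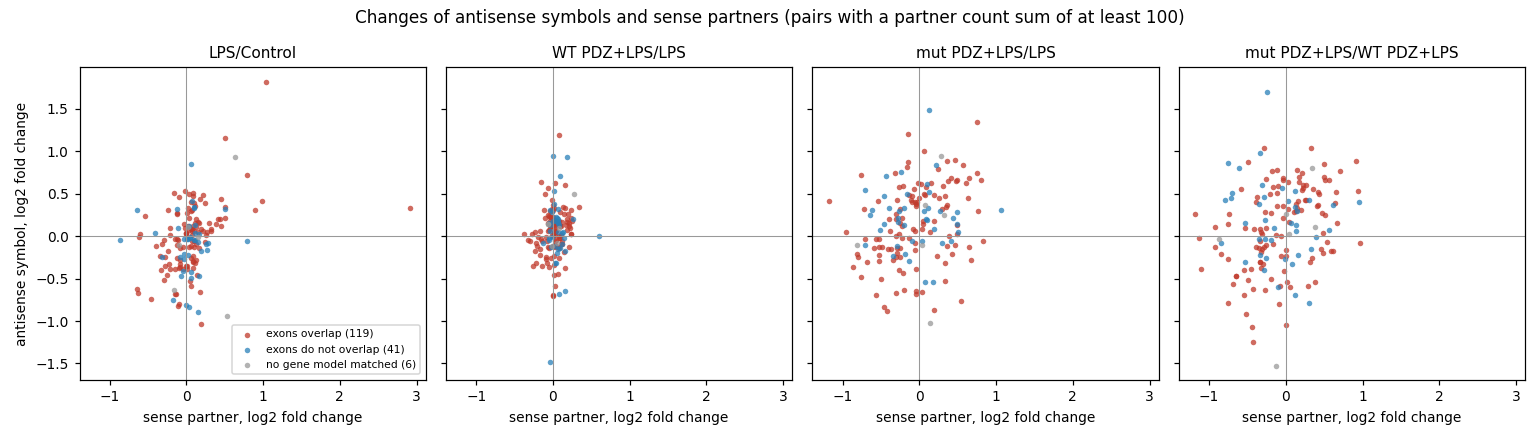
Log2 fold change of each antisense symbol (vertical axis) against that of its sense partner (horizontal axis) in 4 comparisons, for the 166 pairs with a partner count sum of at least 100, coloured by exon overlap. After LPS, the points of MSC (2.91) and EGFR (1.04) lie farthest to the right, and the points of WT PDZ+LPS/LPS lie closest to the origin.

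At A1BG the ratio was nearly constant while both levels varied. A1BG-AS1 had 52, 31, 26 and 42 counts and its partner A1BG, a plasma glycoprotein gene, had 70, 41, 34 and 56, which is 74.3, 75.6, 76.5 and 75 antisense counts per 100 sense counts. The 2 transcripts share 781 exon bases, 28% of the antisense exons. This pair was picked after its values were seen. Among partners with 2 antisense members, PAXIP1 had PAXIP1-AS1 (183, 165, 169 and 166 counts), which starts 364 bases from it without overlap, and PAXIP1-AS2 (74, 76, 71 and 39 counts), which overlaps it. In mut PDZ+LPS/LPS the former differed by 0.33 (0.01 to 0.65) and the latter by -0.63 (-1.24 to -0.07), or by 0.24 and -0.25 after the length and GC correction. PTOV1-AS1 had 255, 221, 160 and 164 counts and PTOV1-AS2 had 142, 151, 166 and 226, and in the same comparison they differed by -0.11 (-0.41 to 0.19) and 0.90 (0.60 to 1.21), the latter 0.24 after the correction.

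Proteins that act on such RNAs were set beside the members. Of 25 genes that bind, edit or sense double-stranded RNA, DDX58, which encodes the sensor RIG-I, was higher after LPS, with 478 normalized counts in Control and 1225 in LPS (log2 1.36, 1.21 to 1.505). ADAR, the editor of adenosine in RNA duplexes, was lower in mut PDZ+LPS than in LPS, with 5044 against 10170 normalized counts (-1.01, -1.06 to -0.96), a difference that was -0.62 and no longer 2-fold after the length and GC correction. No other gene of that list passed the rule in the 4 comparisons. That is 1 of 25 higher after LPS and 1 of 25 lower in mut PDZ+LPS/LPS, where 3.46% and 1.9% of all features were called. The medians of the list were 0.08, -0.03, -0.26 and -0.27, the last 2 being -0.12 and -0.10 after the correction. A list of 23 genes held the RNA exosome and its cofactors, which degrade many antisense transcripts, and the exonucleases XRN1 and XRN2, which are not part of it. Of these 23 genes, 0 passed the rule in any of the 4 comparisons, where between 0.635% and 3.46% of all features were called in a given direction. Their medians were 0.06, 0.05, 0.08 and 0.11, the last 2 being 0.13 and 0.07 after the correction. In mut PDZ+LPS/LPS as counted, XRN2 (-0.83) and XRN1 (-0.77) differed most downwards and EXOSC5 (0.69) most upwards.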

How the data were processed

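RNA from BEAS-2B cells was poly(A)-selected, prepared with a directional kit and sequenced as paired ends. Per the labels, the authors aligned the reads to hg19 with TopHat, and the deposited values are raw counts per gene symbol, 1 table for each of the 4 libraries. The counting tool, the annotation and the strand setting are not given in the sources used here. The members and gene lists were chosen with earlier results of these data known.

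Counts were divided by median-of-ratios size factors (DESeq2 1.42.0 in R 4.3.3), and log2 fold changes used a pseudocount of 1. With 1 library per group no p-value was computed. Exact 95% intervals came from scipy 1.17.1. Each pair was named if its antisense symbol was called in 1 of the 4 comparisons, its partner was called after LPS, it was among the 10 highest antisense levels, the 5 highest or lowest ratios or the 5 largest ratio shifts in a direction, it shared its partner, or it stood next to the count sum of 100. One pair named by this rule is not reported here. Lengths and arrangements came from GENCODE 29, whose build differs from hg19, so none of its coordinates are given. The correction for length and then GC content was a lowess with a span of 0.3 (statsmodels 0.14.6), added after the data were seen for the medians, signs, ratios and gene lists. On data simulated for LPS/Control, the call rule found 200 of 200 symbols changed 4-fold among 12538 (100%) and called 7 of 12338 unchanged ones, and the ratio rule found 40 of 40 changed pairs and 0 of 124 others. The simulated counts held Poisson counting error alone, with no length trend. The changed symbols and all the simulated pairs were above a minimum expected count. Changes near 2-fold or at lower counts were not simulated, so these shares do not apply to them. Alternatives were a pseudocount of 5, other folds and levels, pairs without exon overlap, and scaling by TMM with edgeR 4.0.16, by upper quartiles or by total counts.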

Additional observations from a re-analysis of the deposited data

Results flagged for a closer look

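SMARCA5-AS1 and OIP5-AS1 drew attention because the libraries of the 2 peptides lay on opposite sides of LPS, each beyond counting error. SMARCA5-AS1 differed from LPS by a log2 of 0.37 in WT PDZ+LPS and of -0.88 in mut PDZ+LPS. After the length and GC correction these were 0.36 and -1.58. OIP5-AS1 differed by 0.18 and -0.23, but after the correction by 0.14 and 0.25, so the direction in mut PDZ+LPS turned and the peptides no longer lay on opposite sides. With 1 library per group, the difference between the peptides was not tested, and both values of each symbol share the LPS library.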

How the results depend on the processing

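No paired analysis was possible because each group was 1 library, and for the same reason no library could be left out. Where 4 values are given, they are for LPS against Control, for WT PDZ+LPS and then mut PDZ+LPS against LPS, and for the mutant against the wild-type peptide. The cause of a change was not tested. With a fold of 1.5, 23, 14, 47 and 48 antisense members, 15, 4, 30 and 33 partners and 18, 12, 42 and 50 ratio shifts were called. With a fold of 3 these were 1, 0, 0 and 1, then 1, 0, 0 and 0, then 1, 0, 1 and 2. With a level of 64 normalized counts, 1, 0, 1 and 1 antisense members were called, 0 partners in WT PDZ+LPS/LPS, and 0, 4 and 4 ratio shifts in the last 3 comparisons. With no level rule 6, 3, 6 and 7 partners were called. The shares of all features under these other folds and levels were not computed, so these counts show no excess or lack among the members. Total-count scaling left 1 partner in LPS/Control and gave medians of -0.17 (antisense) and -0.0754 (sense), so the sense median turned negative, while the median of all features moved to -0.13. Upper-quartile scaling left 1 partner in LPS/Control, gave 6 in mut PDZ+LPS/WT PDZ+LPS and set the LPS/Control medians to -0.10 and -0.0055. A pseudocount of 5 gave 0 partners in WT PDZ+LPS/LPS and 4 antisense members in mut PDZ+LPS/WT PDZ+LPS. The length and GC correction left 1 partner in LPS/Control, and with mut PDZ+LPS 1 and 0 partners and 7 and 6 ratio shifts. It gave an antisense median of 0.0864 in mut PDZ+LPS/LPS, and a sense median of 0.0233 against WT PDZ+LPS. Among the 28 head-to-head and 15 other pairs without exon overlap, 8 ratio shifts were called in mut PDZ+LPS/WT PDZ+LPS. Among all 180 pairs with a counted partner, 19 were called in that comparison. Of the antisense calls, RAET1E-AS1 in mut PDZ+LPS/LPS fell under 2-fold with total-count (-0.99), upper-quartile (-0.97) or pseudocount-5 (-0.82) values. Against WT PDZ+LPS, so did ADPGK-AS1 (-0.98 by upper quartiles, -0.95 with a pseudocount of 5), NAV2-AS2 (-0.95), THAP7-AS1 (0.90) and PITPNA-AS1 (0.94, the last 3 with a pseudocount of 5). None of the called values recomputed here changed sign, and OIP5-AS1, which was not called, did so in mut PDZ+LPS/LPS after the length and GC correction (0.25 from -0.23). Depth was low for many members, since 71 of the 182 had fewer than 64 normalized counts on average.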
